A study of Homo sapiens with 6 samples.

Results

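The heat shock chaperones followed here are 10 genes of the cytosolic and mitochondrial chaperone system in siRNA-treated HEK293 cells: HSPB1, HSPB8, HSPA1A, HSPA1B, HSPA8, HSPH1, DNAJB1, HSP90AA1, HSPD1 and HSPE1. They were taken by gene symbol, and all 10 were found among the 63677 genes of the deposited count table and passed the filter on low counts. HEK293 is a human embryonic kidney cell line. Its cells were transfected with an siRNA aimed at circRAB3IP (siRAB3IP), with an siRNA aimed at circCAMSAP1 (siCAMSAP1) or with a control siRNA, and RNA was collected 48 h later for mRNA sequencing with the TruSeq RNA kit. The circRNAs are circular transcripts of the RAB3IP and CAMSAP1 genes. There were 6 libraries, 2 in each of the 3 groups, all from 1 cell line; whether replicate libraries stem from independent cultures is not in the labels, and p-values then reflect only variation among the libraries sequenced, possibly technical.

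Heat shock proteins are chaperones that hold, refold or hand on unfolded proteins. Small heat shock proteins bind unfolding clients without ATP, HSP70 proteins then bind and release them under the control of J-domain partners and HSP110 exchange factors, HSP90 acts late on signalling proteins, and the HSP60 and HSP10 chaperonin folds proteins inside mitochondria. Many of these genes are induced by the transcription factor HSF1, which binds alternating copies of a short unit called the heat shock element.

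The groups of the libraries need stating before any value. Each library carries a number in its record and in the header of the count table, and all 8 normalised columns of the authors' deposited comparison tables matched 1 library each (tolerance 1e-09 on the log2 scale), which fixes the groups used here. The titles of the sample records put 4 of the 6 libraries in another group. By those titles HSPB1 had 79.4 and 85.8 CPM (a gene's fragments relative to the library's TMM-scaled total) in circRAB3IP knockdown, 56.6 and 81.0 CPM in circCAMSAP1 knockdown, and 80.2 and 45.2 CPM in the control. The low and high values then fall within the same group. HSPB8 by the titles had 62.9 and 33.8 CPM in circRAB3IP knockdown, 64.1 and 59.9 CPM in circCAMSAP1 knockdown, and 37.7 and 58.6 CPM in the control. With the titles' groups edgeR called 0 of 10 members and 0 of 22331 genes in each comparison, and an unadjusted p was under 0.05 for 330 genes with circRAB3IP knockdown and 437 with circCAMSAP1 knockdown, each against the control, and for 456 genes between the knockdowns. The genotype entry of the records names the other circRNA than the title does for the knockdown records. Every direction given below rests on the groups of the deposited tables.

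Libraries held 37379217 to 39637733 fragments assigned to genes. Counts per gene do not separate circular from linear transcripts, so they do not check the knockdown. The linear host genes were both present: RAB3IP had 68.1 and 66.7 CPM with siRAB3IP, 56.3 and 61.6 CPM with siCAMSAP1, and 57.5 and 62.5 CPM with control siRNA. CAMSAP1 had 156 and 150 CPM with siRAB3IP, 139 and 138 CPM with siCAMSAP1, and 138 and 136 CPM with control siRNA. Neither host gene was called in any comparison by edgeR's quasi-likelihood test, the test used for every adjusted p below unless another tool is named. Of 8 markers listed for HEK293, 6 averaged at least 1 CPM, among them NEFL, VIM, KRT8 and KRT18, while NEFM and PAX2 stayed under 0.4 CPM in all libraries. The summed level of these 8 markers was 1270 to 1580 CPM with siRAB3IP, 1534 to 1549 CPM with siCAMSAP1, and 1831 to 1901 CPM with control siRNA. Markers of blood, endothelial, stromal and liver cells summed over 10 genes to 16.6 to 19.6 CPM with siRAB3IP, 20.9 to 24.2 CPM with siCAMSAP1, and 20.7 to 22.9 CPM with control siRNA. PECAM1 was at 0 in every library, and PTPRC, CD3E, CD14, DCN and ALB were each under 0.3 CPM. Of 6 tested HEK293 markers, KRT8 at -0.56 ± 0.10 (edgeR adjusted p = 0.00372) and KRT18 at -0.72 ± 0.09 (edgeR adjusted p = 0.000307) fell with siRAB3IP against control on the log2 scale, and NEFL at -0.78 ± 0.13 (edgeR adjusted p = 0.0170) fell with siCAMSAP1. Of 4 tested markers of other cell types, COL1A1 at -0.79 ± 0.14 (edgeR adjusted p = 0.00355) fell with siRAB3IP against control. The part of these differences in the results was not tested.

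The start regions of the 2 members that passed a test, HSPB1 and HSPB8, are shown with that of HSPA8, the member nearest to the threshold, and with those of HSPA1A and HSPA1B, whose near identity limits what their counts can say. Each run is the 250 bases before the RefSeq transcription start on GRCh38.p14, read 5′ to 3′ on the gene's strand. Capitals mark matches to paired heat shock units, GAANNTTC or TTCNNGAA, each of which reads the same on both strands.
HSPB1, chr7:76302423-76302672, plus strand: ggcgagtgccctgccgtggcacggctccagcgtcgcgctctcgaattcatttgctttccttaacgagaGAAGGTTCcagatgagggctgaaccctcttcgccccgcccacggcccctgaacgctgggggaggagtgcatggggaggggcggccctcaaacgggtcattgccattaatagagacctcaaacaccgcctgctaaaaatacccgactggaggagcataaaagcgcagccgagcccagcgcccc
HSPB8, chr12:119178681-119178930, plus strand: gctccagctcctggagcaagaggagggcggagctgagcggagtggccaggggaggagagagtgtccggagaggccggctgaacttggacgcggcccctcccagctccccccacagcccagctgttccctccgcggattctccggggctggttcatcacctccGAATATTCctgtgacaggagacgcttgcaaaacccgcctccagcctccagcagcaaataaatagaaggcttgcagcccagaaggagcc
HSPA8, chr11:123062137-123062386, minus strand: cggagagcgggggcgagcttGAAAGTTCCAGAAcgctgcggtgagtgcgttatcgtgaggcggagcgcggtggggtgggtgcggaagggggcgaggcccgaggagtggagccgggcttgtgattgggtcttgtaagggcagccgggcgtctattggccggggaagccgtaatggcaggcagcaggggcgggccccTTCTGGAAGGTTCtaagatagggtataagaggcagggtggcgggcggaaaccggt
HSPA1A, chr6:31815293-31815542, plus strand: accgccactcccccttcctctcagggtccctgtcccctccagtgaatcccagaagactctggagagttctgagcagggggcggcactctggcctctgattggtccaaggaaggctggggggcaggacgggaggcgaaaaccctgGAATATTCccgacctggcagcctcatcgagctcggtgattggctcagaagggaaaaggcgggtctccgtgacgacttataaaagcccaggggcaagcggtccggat
HSPA1B, chr6:31827488-31827737, plus strand: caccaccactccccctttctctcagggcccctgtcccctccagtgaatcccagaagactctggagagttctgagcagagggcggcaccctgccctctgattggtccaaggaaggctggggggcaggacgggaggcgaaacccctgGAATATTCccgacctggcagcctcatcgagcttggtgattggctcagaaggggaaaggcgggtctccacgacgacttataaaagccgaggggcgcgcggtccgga

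HSPB1 and HSPB8 each held 1 paired unit, whose first base lay 182 bases before the start in HSPB1 and 88 bases before it in HSPB8. HSPA8 held 4 overlapping matches that form 2 longer elements of 3 alternating units, 1 far from the start and 1 near it. The HSPA1A and HSPA1B windows carried the same 8 bases in capitals, and aligned 1 base apart they had the same base at 235 of 249 positions. RefSeq gives 14 start regions for the 10 members, and 8 members had a paired unit in at least 1 of them (8 of 14 regions, 57.1%), against 4067 of 35116 start regions of all genes (11.6%). The longer element of 3 alternating units was in 3 of 14 member regions, those of HSPA8, HSP90AA1 and HSPD1, against 155 of all 35116 (0.441%). HSPH1 and HSPE1 had no match in these windows. A match describes these letters and shows no binding. HSPB1, which fell, and HSPB8, which rose, both held the shorter match.

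Small heat shock proteins. HSPB1 and HSPB8 were the members called by edgeR's fit on the 3 groups, and they changed in different ways. A fit with the replicate number as a block called further members, given with each gene. HSPB1 fell by 38.7% with siRAB3IP and was near control with siCAMSAP1, whereas HSPB8 rose 1.72-fold with either siRNA. In bulk RNA, fewer cells expressing a gene and less RNA per cell cannot be told apart.

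HSPB1 (ENSG00000106211, hg19 chr7:75931861-75933612, plus strand) encodes HSP27, an abundant small heat shock protein that binds unfolding proteins and actin. It had 45.2 and 56.6 CPM with siRAB3IP, 79.4 and 81.0 CPM with siCAMSAP1, and 80.2 and 85.8 CPM with control siRNA. Both siRAB3IP libraries lay below all 4 others, and the siCAMSAP1 and control ranges overlapped. Group means were 50.9 ± 8.01, 80.2 ± 1.13 and 83.0 ± 3.94 CPM for siRAB3IP, siCAMSAP1 and control (SD, n = 2 each). These rest on 1710 to 3545 fragments per library. The log2 fold change with siRAB3IP against control was -0.71 ± 0.10 (SE; 95% interval -0.92 to -0.49; edgeR adjusted p = 0.000636). With siCAMSAP1 against control it was -0.05 ± 0.10 (95% interval -0.26 to 0.16; edgeR adjusted p = 0.896). The direct difference, siRAB3IP over siCAMSAP1, was -0.66 ± 0.10 (95% interval -0.87 to -0.44; edgeR adjusted p = 0.00129), so the siRNAs differed in this gene beyond the spread between libraries. With each library left out in turn the change against control ranged from -0.87 to -0.55 and passed the test in 6 of 6 fits. The authors' deposited table for siRAB3IP gave -0.70 for HSPB1, and their table for siCAMSAP1 does not list it.

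HSPB8 (ENSG00000152137, hg19 chr12:119616447-119658936, plus strand) encodes HSP22, the partner of BAG3 in directing misfolded proteins to autophagy. It had 58.6 and 64.1 CPM with siRAB3IP, 62.9 and 59.9 CPM with siCAMSAP1, and 37.7 and 33.8 CPM with control siRNA. All 4 libraries of the targeting siRNAs lay above both controls, and their own ranges overlapped. Group means were 61.4 ± 3.90, 61.4 ± 2.12 and 35.7 ± 2.78 CPM for siRAB3IP, siCAMSAP1 and control (SD, n = 2 each). The log2 fold change was 0.78 ± 0.09 with siRAB3IP (95% interval 0.59 to 0.97; edgeR adjusted p = 0.000152). It was 0.78 ± 0.09 with siCAMSAP1 (95% interval 0.59 to 0.97; edgeR adjusted p = 0.00115). These comparisons share the control libraries, so their likeness is no separate evidence. The direct difference between the siRNAs had a 95% interval of -0.19 to 0.19 on the log2 scale, which leaves room for either sign. The authors' deposited tables gave 0.79 for siRAB3IP and 0.77 for siCAMSAP1. BAG3 itself had 34.6 and 33.0 CPM with siRAB3IP, 38.7 and 35.4 CPM with siCAMSAP1, and 35.0 and 33.2 CPM with control siRNA. It was not called in any comparison.

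**Figure D1:**
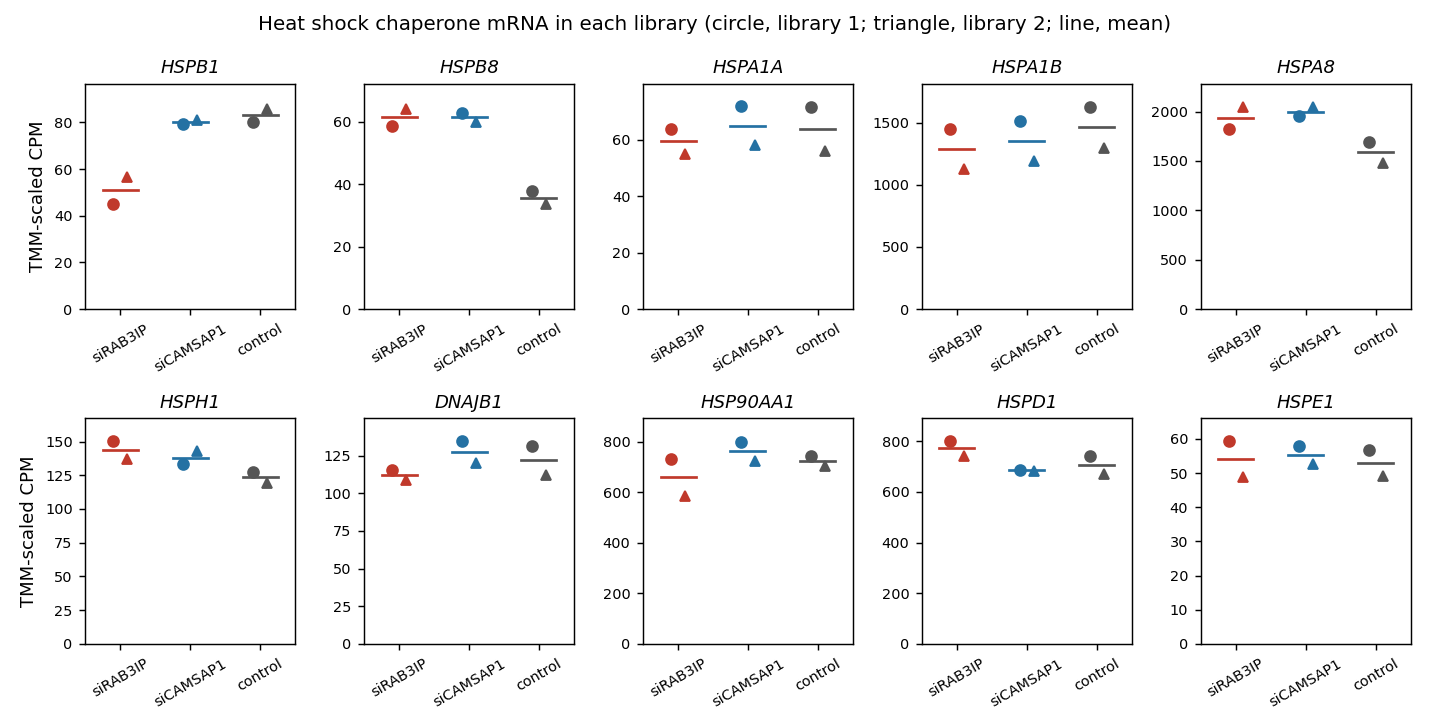
TMM-scaled CPM (y axes, from 0) of the 10 chaperone genes in the siRAB3IP, siCAMSAP1 and control groups; circles are library 1 and triangles library 2 of a group, and lines are group means. HSPB1 is at 45.2 and 56.6 CPM in the siRAB3IP libraries and above 79 CPM in the others, HSPB8 is at 58.6 to 64.1 CPM with either targeting siRNA and at 37.7 and 33.8 CPM in the controls, and the panels of HSPA1A, HSPA1B and HSPE1 show overlapping groups.

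Cytosolic HSP70 and HSP110. HSPA8, the constitutive HSC70 that folds new proteins and uncoats clathrin vesicles, lay above control with both targeting siRNAs without passing the test. HSPA8 (ENSG00000109971, hg19 chr11:122928197-122933938, minus strand) had 1824 and 2047 CPM with siRAB3IP, 1954 and 2042 CPM with siCAMSAP1, and 1693 and 1480 CPM with control siRNA. All 4 targeting libraries lay above both controls. The log2 fold change was 0.29 ± 0.09 with siRAB3IP (95% interval 0.09 to 0.49; edgeR adjusted p = 0.0625) and 0.33 ± 0.09 with siCAMSAP1 (95% interval 0.13 to 0.53; edgeR adjusted p = 0.130), and neither passed. The direct difference was -0.05 (95% interval -0.25 to 0.15). The call depended on the fit: DESeq2 gave an adjusted p of 0.0195 for siRAB3IP and 0.0271 for siCAMSAP1, limma-voom gave 0.0390 and 0.0879, and over 17 alternatives with these groups the gene passed in 5 for siRAB3IP and 4 for siCAMSAP1. Without control library 1 the values were 0.39 (edgeR adjusted p = 0.0141) and 0.44 (edgeR adjusted p = 0.0220). The gene also passed with all libraries in the fit with the replicate number as a block (edgeR adjusted p = 0.00122 for siRAB3IP and 0.00103 for siCAMSAP1) and with no filter on low counts (0.00813 and 0.00659).

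HSPA1A and HSPA1B, neighbouring genes on chromosome 6, encode the stress-inducible HSP70 and are near-identical copies. Of all 100-base windows of the longest GENCODE transcript, 69.9% of those of HSPA1A occur unchanged in HSPA1B, and 68.8% of those of HSPA1B occur in HSPA1A. The table gave HSPA1A 4.14% to 4.67% of the fragments of both genes in every library, and this split is uncertain because a fragment inside a shared stretch can be placed on either copy. HSPA1B (ENSG00000204388, hg19 chr6:31795512-31798031, plus strand) had 1448 and 1126 CPM with siRAB3IP, 1512 and 1194 CPM with siCAMSAP1, and 1623 and 1297 CPM with control siRNA. HSPA1A (ENSG00000204389, hg19 chr6:31783291-31785723, plus strand) had 63.8 and 55.2 CPM with siRAB3IP, 71.9 and 58.4 CPM with siCAMSAP1, and 71.6 and 56.1 CPM with control siRNA. The groups overlapped for both genes, and library 2 was below library 1 in all 3 groups. The log2 fold change of HSPA1B was -0.18 ± 0.15 with siRAB3IP (95% interval -0.52 to 0.15) and -0.11 ± 0.15 with siCAMSAP1 (95% interval -0.45 to 0.23). HSPA1B had the widest intervals among the members in this fit. It was below control in both same-numbered pairs of libraries with siRAB3IP, and with the replicate number as a block the change of -0.18 passed (edgeR adjusted p = 0.00730).

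HSPH1 (ENSG00000120694, hg19 chr13:31710762-31736525, minus strand) encodes HSP110, a nucleotide exchange factor for HSP70. It had 150 and 137 CPM with siRAB3IP, 133 and 143 CPM with siCAMSAP1, and 127 and 120 CPM with control siRNA. Each targeting group lay above the controls without overlap. The log2 fold change was 0.22 ± 0.08 with siRAB3IP (95% interval 0.04 to 0.39; edgeR adjusted p = 0.104) and 0.16 ± 0.08 with siCAMSAP1 (95% interval -0.01 to 0.34; edgeR adjusted p = 0.463), and neither passed. With the replicate number as a block the siRAB3IP change passed (edgeR adjusted p = 0.00795).

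J-domain partner, HSP90 and chaperonin. DNAJB1 (ENSG00000132002, hg19 chr19:14625582-14640582, minus strand) encodes HSP40, which delivers clients to HSP70 and stimulates its ATPase. It had 115 and 109 CPM with siRAB3IP, 135 and 120 CPM with siCAMSAP1, and 132 and 112 CPM with control siRNA. Its siRAB3IP libraries lay below both siCAMSAP1 libraries and overlapped the controls. The direct difference of -0.19 ± 0.09 (95% interval -0.38 to 0.01; edgeR adjusted p = 0.247) did not pass, and passed with the replicate number as a block (edgeR adjusted p = 0.0211).

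HSP90AA1 (ENSG00000080824, hg19 chr14:102547075-102606036, minus strand), the inducible cytosolic HSP90, had 732 and 587 CPM with siRAB3IP, 801 and 723 CPM with siCAMSAP1, and 743 and 703 CPM with control siRNA. The second siRAB3IP library was the lowest of the 6, and no pair of groups was free of overlap. Its log2 fold change was -0.13 ± 0.10 with siRAB3IP against control (edgeR adjusted p = 0.457) and -0.21 ± 0.10 with siRAB3IP against siCAMSAP1 (95% interval -0.43 to 0.01; edgeR adjusted p = 0.244). Neither difference passed in this fit, and the direct one passed with the replicate number as a block (edgeR adjusted p = 0.00617).

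HSPD1 and HSPE1 encode the mitochondrial chaperonin HSP60 and its co-chaperonin HSP10, and lie head to head on chromosome 2. HSPD1 (ENSG00000144381, hg19 chr2:198351305-198381461, minus strand) had 803 and 740 CPM with siRAB3IP, 688 and 683 CPM with siCAMSAP1, and 743 and 670 CPM with control siRNA. HSPE1 (ENSG00000115541, hg19 chr2:198364718-198368181, plus strand) had 59.5 and 48.9 CPM with siRAB3IP, 58.0 and 52.5 CPM with siCAMSAP1, and 56.7 and 49.1 CPM with control siRNA. The siRAB3IP libraries of HSPD1 lay above both siCAMSAP1 libraries, and the groups of HSPE1 overlapped throughout. The direct difference of HSPD1 was 0.17 ± 0.08 (95% interval -0.01 to 0.35; edgeR adjusted p = 0.242) and did not pass, but passed with the replicate number as a block (edgeR adjusted p = 0.0198). HSPE1 shares 23.9% of its exon bases with other genes, among them HSPD1 on the opposite strand, and its 26 listed pseudogenes took 3.47% to 5.10% of the fragments summed over gene and pseudogenes. Reads were counted without strand, so HSPE1 is an uncertain measurement.

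**Figure D2:**
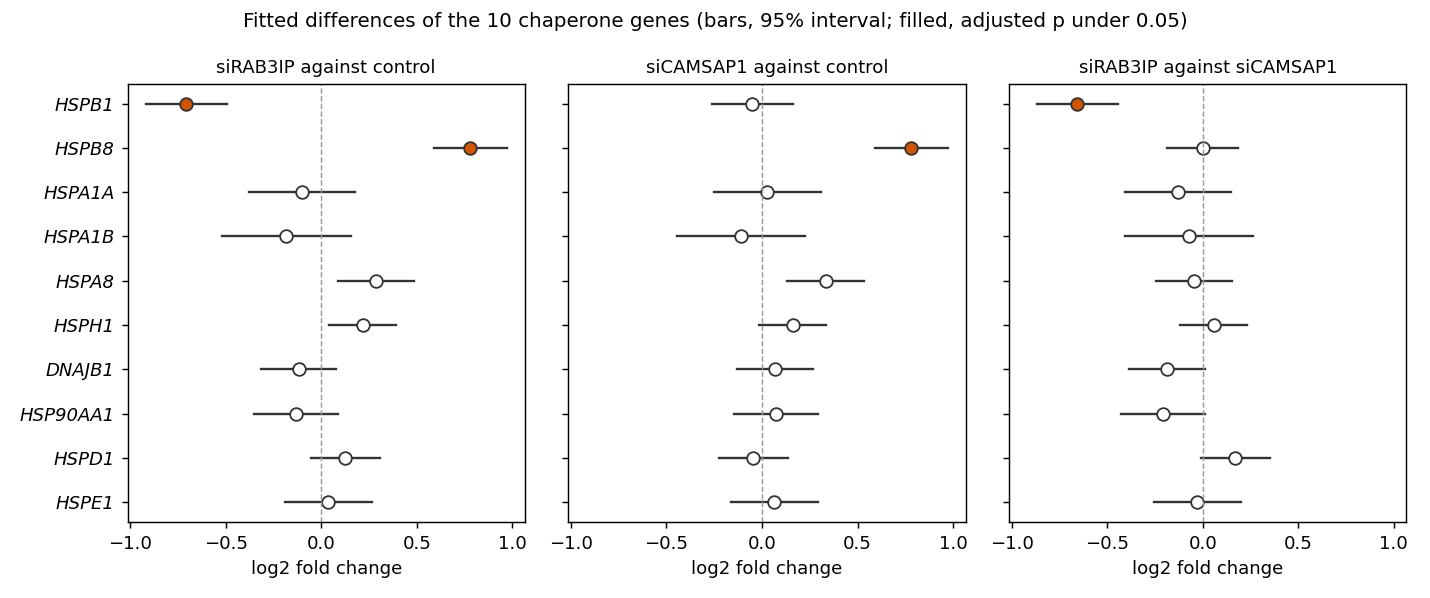
Fitted log2 fold changes (x axes) of the 10 genes in the 3 comparisons; bars are 95% intervals and filled points passed edgeR's test at an adjusted p of 0.05. Against control, siRAB3IP has HSPB1 at -0.71 and HSPB8 at 0.78 filled, siCAMSAP1 has HSPB8 at 0.78, and the direct comparison has HSPB1 at -0.66.

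Read over the whole set, 2 of 10 members were called with siRAB3IP against control, 1 higher and 1 lower, where 12% of all 22331 genes tested were called, 6.58% higher and 5.38% lower. For siCAMSAP1 against control 1 of 10 was called, higher, against 1.06% of all genes and 0.519% in that direction, and without control library 1 it was 2 of 10, HSPA8 being the addition. In the direct comparison 1 of 10 was called, lower with siRAB3IP, against 9.3% of all genes and 4.16% in that direction. With 10 members these shares rest on 1 or 2 genes each. With the replicate number as a block 5, 2 and 4 members were called in these 3 comparisons, and 5590, 1643 and 4829 of all genes. The median log2 fold change of the members was -0.03 with siRAB3IP, where all genes had -0.01, and 0.07 with siCAMSAP1, where all genes had 0.00084. It was -0.06 in the direct comparison, where all genes had -0.01. The 2 groups' libraries did not overlap for 4 of 10 members with siRAB3IP against control (53.7% of all genes) and for 3 of 10 with siCAMSAP1 against control (41.5% of all genes). For siRAB3IP against siCAMSAP1 it was 3 of 10 (52.2% of all genes). All these shares of non-overlap among the members lay below those of all genes.

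Per length, the levels of the members spanned a wide range. In TPM, which divides counts by exon length, averaged over the 6 libraries, HSPA1B stood at 778, HSPA8 at 543, HSPD1 at 243, HSP90AA1 at 196 and HSPB1 at 63.2. HSPH1 followed at 47.2 TPM, DNAJB1 at 47.1 TPM, HSPE1 at 39.2 TPM, HSPA1A at 36.98 TPM and HSPB8 at 26.3 TPM. The split of fragments between HSPA1A and HSPA1B and the level of HSPE1 are uncertain, as stated above. The places of these genes in the order are therefore uncertain too. The ranges over libraries of HSPA1B (624 to 925 TPM) and HSPA8 (486 to 613 TPM) did not overlap, nor did those of HSPA8 and HSPD1 (224 to 256 TPM), nor those of HSPD1 and HSP90AA1 (156 to 213 TPM), nor those of HSP90AA1 and HSPB1. Below HSP90AA1 the ranges of HSPB1 and HSPH1, of HSPH1 and DNAJB1, and of HSPE1 and HSPA1A overlapped. Those of DNAJB1 (41.5 to 51.5 TPM) and HSPE1 (34.5 to 41.2 TPM) did not, nor did those of HSPA1A (31.7 to 42.3 TPM) and HSPB8 (18.8 to 31.3 TPM). The overlap of HSPB1 (37.5 to 83.6 TPM) with HSPH1 (44.7 to 50.8 TPM) came with its low siRAB3IP values, 42.9 ± 7.68 TPM against 77.0 ± 9.23 TPM in controls (SD, n = 2 each).

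Within the groups some of the members also varied in the same direction. Library 2 was lower than library 1 in all 3 groups for 6 of 10 members, HSPA1A, HSPA1B, DNAJB1, HSP90AA1, HSPD1 and HSPE1, against 21.2% of the 22252 genes with a count in every library. HSPB1 was the member with library 2 higher in all 3 groups, and HSPB8, HSPA8 and HSPH1 had mixed directions. HSPA1A and HSPA1B share much of their sequence, and HSPD1 and HSPE1 share exon bases, so the 6 are not separate measurements. For HSPA1B the log2 ratio of library 2 to library 1 was -0.36 with siRAB3IP, -0.34 with siCAMSAP1 and -0.32 with control siRNA. Each of these exceeds its largest fitted difference between groups, -0.18. The genes differ in expression level and share libraries, so this is a description of these libraries.

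Around the members, 10 lists with 128 further genes of the chaperone system were read in the same fits, and 118 passed the filter on low counts. With siRAB3IP against control 7 rose and 6 fell of 118, where 12% of all genes were called, 6.58% higher and 5.38% lower. For siCAMSAP1 against control 0 rose and 1 fell by edgeR, where 1.06% of all genes were called. Of the 118 genes 9 had an unadjusted p under 0.05 there, and DESeq2 and limma-voom called 2 each. In the direct comparison 5 were higher and 7 lower with siRAB3IP, where 9.3% of all genes were called. The shares called in these 3 comparisons, 11.02%, 0.847% and 10.2%, were near those of all genes. With each library left out in turn, 2 of the 13 calls with siRAB3IP against control were made in all 6 fits, HYOU1 and HSPA5, as was the 1 with siCAMSAP1 and 3 of the 12 in the direct comparison, DNAJC16, HMOX1 and YME1L1. Against control edgeR called 7 list genes without siRAB3IP library 1, 4 without siRAB3IP library 2 and 8 without control library 2, of which 7, 3 and 7 were among the 13. Between the siRNAs it called 7 without siRAB3IP library 1, 4 without siRAB3IP library 2 and 6 without siCAMSAP1 library 1, of which 7, 4 and 5 were among the 12. Their median log2 fold change was 0.02 with siRAB3IP against control and 0.04 with siCAMSAP1 against control. Of the other 7 small heat shock genes 1 passed the filter, HSPB7, at 1.32 and 1.65 CPM with siRAB3IP, 1.88 and 1.98 CPM with siCAMSAP1, and 1.71 and 1.67 CPM with control siRNA. In TPM, HSPB1 and HSPB8 made up 98.7% to 99.1% of the summed level of all 9 small heat shock genes in each library.

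Of 12 further HSP70 and HSP110 genes 2 rose and 0 fell with siRAB3IP against control by edgeR, 4 had an unadjusted p under 0.05, and DESeq2 and limma-voom called 2 each; of all genes 6.58% were called higher. The 2 genes, HYOU1 and HSPA5, both act in the endoplasmic reticulum (ER). Among other ER genes of the lists, DNAJB11 and DNAJC3, given below, were also called higher with siRAB3IP against control. Genes not called there included HSP90B1 at 0.05, DNAJB9 at 0.22, DNAJC10 at 0.15, SIL1 at -0.08 and HSPA13 at -0.16 on the log2 scale. HYOU1, the ER relative of HSP110, had 143 and 157 CPM with siRAB3IP, 112 and 119 CPM with siCAMSAP1, and 101 and 102 CPM with control siRNA, a log2 fold change of 0.57 ± 0.08 with siRAB3IP against control (edgeR adjusted p = 0.000616). HSPA5, the ER HSP70 known as BiP, had 121 and 106 CPM with siRAB3IP, 92.0 and 87.3 CPM with siCAMSAP1, and 80.2 and 82.7 CPM with control siRNA, a log2 fold change of 0.47 ± 0.08 (edgeR adjusted p = 0.00295). Both were also higher with siRAB3IP than with siCAMSAP1, HYOU1 by 0.38 ± 0.08 (edgeR adjusted p = 0.00899) and HSPA5 by 0.34 ± 0.08 (edgeR adjusted p = 0.0230). These direct differences held in 4 of 6 fits for HYOU1 and 3 of 6 for HSPA5 when a library was left out. The strictly inducible HSPA6, which is nearly silent without stress, stayed between 0.346 and 0.767 CPM in all 6 libraries.

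Among 14 tested J-domain genes of classes A and B, 1 rose with siRAB3IP against control and 0 fell by edgeR, 3 had an unadjusted p under 0.05, and DESeq2 and limma-voom called 1 each. It was DNAJB11, a BiP partner in the ER, at 0.30 ± 0.08 on the log2 scale (edgeR adjusted p = 0.0238). With siCAMSAP1 against control DNAJB11 was at 0.27 ± 0.08 (edgeR adjusted p = 0.158) and was not called, though its groups did not overlap. Of 26 tested class C genes 2 rose and 3 fell, beside 6.58% of all genes higher and 5.38% lower. DNAJC25, which shares 39.4% of its exon bases with the read-through gene DNAJC25-GNG10, rose by 0.42 ± 0.11 (edgeR adjusted p = 0.0308) and DNAJC3, an ER co-chaperone of BiP, by 0.40 ± 0.09 (edgeR adjusted p = 0.00902). DNAJC12 fell by 0.44 (edgeR adjusted p = 0.0118) and DNAJC22 by 0.44 (edgeR adjusted p = 0.0390). DNAJC22 was also low with siCAMSAP1, at 10.9 and 9.65 CPM, beside 13.8 and 14.3 CPM with control siRNA. DNAJC12 was not, at 26.1 and 26.0 CPM with siCAMSAP1 and 25.8 and 24.0 CPM with control siRNA. The calls of DNAJB11, DNAJC25, DNAJC3, DNAJC12 and DNAJC22 were not made in every fit with a library left out. DNAJC16 was the 1 gene of all 10 lists called with siCAMSAP1, at 23.4 and 23.7 CPM with siCAMSAP1 and 35.4 and 34.6 CPM with control siRNA, a log2 fold change of -0.57 ± 0.09 (edgeR adjusted p = 0.00659). It had 37.3 and 35.6 CPM with siRAB3IP. The direct difference of DNAJC16 was 0.63 ± 0.09 (edgeR adjusted p = 0.000662).

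Of 12 tested HSP70 co-chaperones 2 fell with siRAB3IP against control, beside 5.38% of all genes, both of the BAG family of HSP70 exchange factors. BAG1 had 27.5 and 26.3 CPM with siRAB3IP, 38.5 and 34.2 CPM with siCAMSAP1, and 41.6 and 35.0 CPM with control siRNA, a log2 fold change of -0.51 ± 0.10 against control (edgeR adjusted p = 0.00643). BAG4 fell by 0.31 (edgeR adjusted p = 0.0420). In the direct comparison BAG1 was at -0.43 ± 0.10 (edgeR adjusted p = 0.0180). BAG1 was called in 5 of 6 fits with a library left out and lost its call without siRAB3IP library 2; BAG4 lost its call without siRAB3IP library 2, control library 1 or control library 2. Of 17 HSP90 family and co-chaperone genes edgeR called 0 in each comparison, with 1, 0 and 3 at an unadjusted p under 0.05 for siRAB3IP against control, siCAMSAP1 against control and siRAB3IP against siCAMSAP1, and DESeq2 and limma-voom called 0. Of 14 genes of the cytosolic chaperonin TRiC and its partner prefoldin edgeR called 0 in each comparison. There 2, 0 and 2 had an unadjusted p under 0.05, and DESeq2 called 0, 0 and 1. Of all genes edgeR called 12%, 1.06% and 9.3% in these 3 comparisons.

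HSF1, the transcription factor of the heat shock genes, had 48.0 and 50.4 CPM with siRAB3IP, 41.1 and 38.4 CPM with siCAMSAP1, and 41.9 and 37.1 CPM with control siRNA. It rose with siRAB3IP against control by 0.32 ± 0.09 (edgeR adjusted p = 0.0338), was at 0.01 ± 0.09 with siCAMSAP1, and was higher with siRAB3IP than with siCAMSAP1 by 0.31 ± 0.09 (edgeR adjusted p = 0.0453). It was the 1 gene called of 5 tested factors and regulators. Of all genes 6.58% were called higher with siRAB3IP against control, and 9.3% were called in the direct comparison. The call against control was lost without siRAB3IP library 1, siRAB3IP library 2 or control library 2, and the direct difference was called in 2 of 6 fits. Of 9 other heat-inducible genes, JMJD6 rose with siRAB3IP against control by 0.45 ± 0.09 (edgeR adjusted p = 0.00639). The other 8 were not called there, beside 6.58% of all genes called higher. HMOX1, heme oxygenase, had 11.8 and 11.2 CPM with siRAB3IP, 23.6 and 18.3 CPM with siCAMSAP1, and 16.2 and 14.0 CPM with control siRNA. It was lower with siRAB3IP than with siCAMSAP1, at -0.86 ± 0.13 (edgeR adjusted p = 0.00164).

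Of 8 mitochondrial proteases and unfoldases, which work beside HSPD1 and HSPE1, AFG3L2 fell with siRAB3IP against control by 0.38 (edgeR adjusted p = 0.0276), a call lost without siRAB3IP library 2 or control library 1. Of all genes 5.38% were called lower with siRAB3IP against control. In the direct comparison AFG3L2 at -0.56 ± 0.10 (edgeR adjusted p = 0.00408) and LONP1 at -0.36 ± 0.09 (edgeR adjusted p = 0.0205) were lower with siRAB3IP. YME1L1 at 0.41 ± 0.07 (edgeR adjusted p = 0.00436) was higher there, and 9.3% of all genes were called. YME1L1 had 329 and 330 CPM with siRAB3IP, 245 and 252 CPM with siCAMSAP1, and 317 and 306 CPM with control siRNA. With siRAB3IP against control YME1L1 was at 0.08 ± 0.07 and was not called, while both its siCAMSAP1 libraries lay below both controls. With siCAMSAP1 against control edgeR called 0 of these 8 genes, and DESeq2 and limma-voom called 1 each. DNAJB2, a neuronal J-domain protein, was the 1 gene of classes A and B called in the direct comparison, at -0.43 ± 0.11 (edgeR adjusted p = 0.0229). DNAJC12 and DNAJC7, which binds both HSP70 and HSP90, were lower there too, at -0.51 ± 0.10 (edgeR adjusted p = 0.00627) and -0.27 ± 0.08 (edgeR adjusted p = 0.0474). The direct calls of AFG3L2, LONP1, DNAJB2, DNAJC12 and DNAJC7 were not made in every fit with a library left out.

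**Figure D3:**
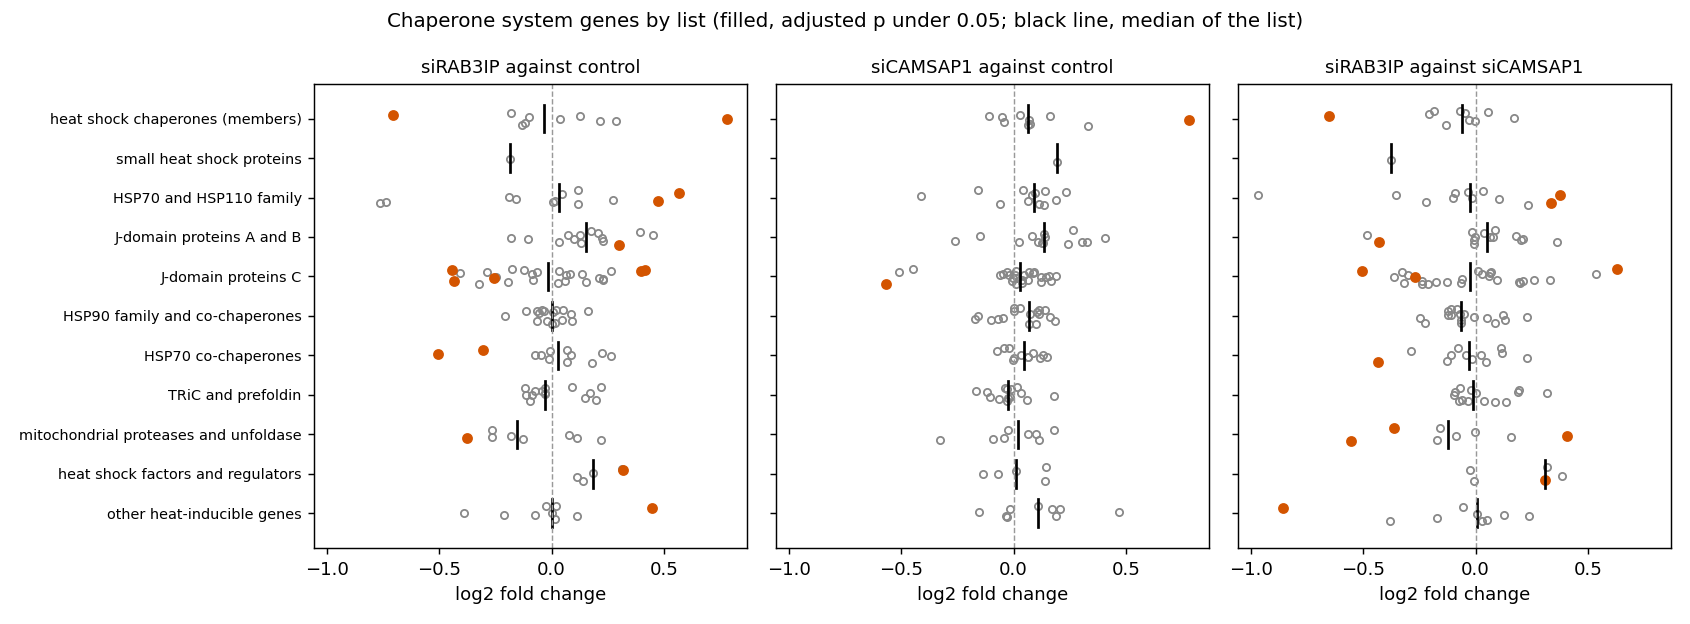
Log2 fold changes (x axes) of the 10 heat shock chaperones and of 10 lists of other chaperone system genes in the 3 comparisons; each point is a gene, filled points passed edgeR's test at an adjusted p of 0.05, and black lines are list medians. With siCAMSAP1 against control 1 gene of the lists is filled, DNAJC16 at -0.57, and 13 are filled with siRAB3IP against control.

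The genes whose levels over the 6 libraries were most like HSPB1 were sought among 11784 genes that averaged 5 CPM or more. Likeness was the root mean square difference of log2 CPM, each gene centred on its own mean. The closest 5 were LTBP4 at 0.024, ACSF2 at 0.063, CREB3L4 at 0.066, GDPD1 at 0.068 and ZNF18 at 0.069. LTBP4 had 4.73 and 5.80 CPM with siRAB3IP, 8.02 and 8.05 CPM with siCAMSAP1, and 8.13 and 8.88 CPM with control siRNA. The same search for HSPB8, added after its values were seen, gave SLC12A7 at 0.062, WWC1 at 0.080, MICA at 0.084, SLC16A9 at 0.086 and TAPBP at 0.092. SLC12A7 had 39.2 and 40.7 CPM with siRAB3IP, 40.2 and 37.5 CPM with siCAMSAP1, and 25.7 and 23.8 CPM with control siRNA. None of the other 9 members was among the closest 5 of either gene. With 5 of 11784 genes listed, this absence does not show how like or unlike the other members were.

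**Figure D4:**
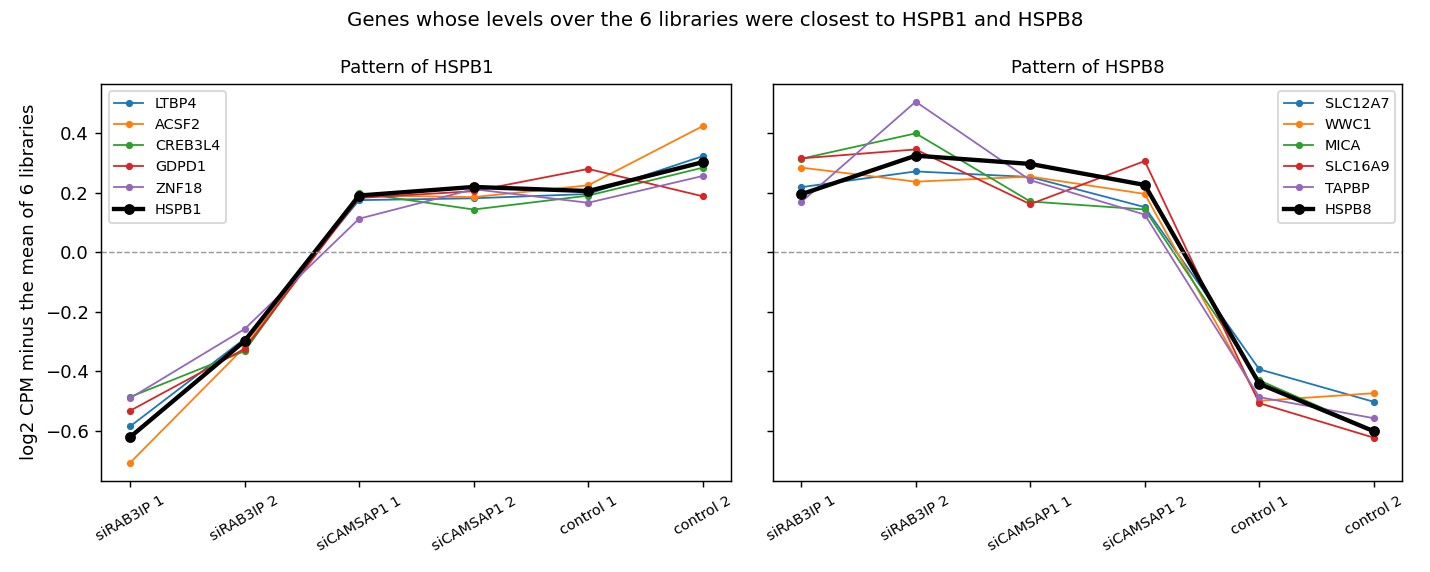
Log2 CPM minus the gene's mean over the 6 libraries (y axis) in each library (x axis) for HSPB1 and its closest 5 genes (left) and for HSPB8 and its closest 5 (right), with the named gene in black. The lines of HSPB1 and LTBP4, which differ by 0.024, are low in the siRAB3IP libraries, and those of HSPB8 and SLC12A7 are low in the controls.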

How the data were processed

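Fragments per gene were deposited by the authors as counts from featureCounts 1.6.0, per the file headers, which record primary alignments, read pairs and no strand setting; STAR, featureCounts, DESeq2 and build hg19 are named in the submitters' processing notes. The authors' deposited comparison tables hold log2 fold changes, p-values and normalised counts (a signal scaled by size factors). The members and lists were chosen with earlier results of these data known. Symbols came from a gene name table. The counts were fitted in R 4.3.3 with edgeR 4.0.16 (TMM scaling, filterByExpr, robust quasi-likelihood fit over 6 libraries) and Benjamini-Hochberg adjustment over 22331 genes, with a call at 0.05. CPM uses TMM-scaled library sizes, and TPM divides counts by exon length. Alternatives used DESeq2 1.42.0, limma 3.58.1, other scalings and filters, a replicate block and each library left out. The edgeR fit was tested on simulated data, with changes set in genes of at least 5 CPM on average. It called 18.9% to 21.9% of 1.25-fold changes, 79.1% to 84.1% of 1.5-fold and 99.0% to 100% of 2-fold changes. A gene that was not called may therefore still have changed by a small amount. Named genes were all members, up to 4 called genes per list and comparison, the host genes, and the 5 genes closest to HSPB1; the markers, BAG3, HSPB7, HSPA6 and the genes closest to HSPB8 were named after their values were seen. Intervals are at 95% and cover the spread between libraries.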

Additional observations from a re-analysis of the deposited data

How the results depend on the processing

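Over 17 alternatives that keep the groups of the deposited tables, HSPB1 was called with siRAB3IP against control in 17 of 17 (-0.87 to -0.55) and with siRAB3IP against siCAMSAP1 in 17 of 17 (-0.82 to -0.50), and HSPB8 was called against control in 17 of 17 for siRAB3IP (0.71 to 0.86) and for siCAMSAP1 (0.70 to 0.87). The groups by the sample records' titles ended these calls: 0 members and 0 genes were called in each comparison. The fold changes that then had the other sign were, for circRAB3IP against control, HSPB1 0.40, HSPA8 -0.034, HSPH1 -0.14, DNAJB1 0.00070, HSP90AA1 0.027, HSPD1 -0.19 and HSPE1 -0.12. For circCAMSAP1 against control they were HSPB1 0.13, HSPA1A -0.25, DNAJB1 -0.11, HSP90AA1 -0.17 and HSPE1 -0.20. For circRAB3IP against circCAMSAP1 they were HSPB1 0.26, HSPA1A 0.17, HSPA1B 0.28, HSPH1 -0.15, DNAJB1 0.11, HSP90AA1 0.20, HSPD1 -0.067 and HSPE1 0.078. Other alternatives with another sign concerned HSPB8 in the direct comparison, where the fitted difference is near 0: 0.0056 with RLE scaling and with DESeq2, 0.0068 with no filter, 0.00077 with a filter at 5 CPM on average, and 1.8e-05 with the replicate block.

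Leaving out each library in turn gave 1160 to 2675 called genes with siRAB3IP against control, where all libraries gave 2671; it was 1307 without siRAB3IP library 1, 1160 without siRAB3IP library 2 and 1680 without control library 2. For siCAMSAP1 it gave 86 to 425, where all libraries gave 237; it was 127 and 86 without siCAMSAP1 libraries 1 and 2, and 425 and 135 without control libraries 1 and 2. In the direct comparison it gave 719 to 2652, where all libraries gave 2076; it was 1132 and 719 without siRAB3IP libraries 1 and 2, and 976 and 1261 without siCAMSAP1 libraries 1 and 2. The members called were 2 to 3 with siRAB3IP, 1 to 2 with siCAMSAP1 and 1 in 6 of 6 direct fits. With siRAB3IP against control the fold change turned in at least 1 such fit for HSPA1A (-0.27 to 0.088), DNAJB1 (-0.23 to 0.0034), HSP90AA1 (-0.30 to 0.019) and HSPE1 (-0.11 to 0.17). For siCAMSAP1 it turned for HSPA1A (-0.14 to 0.22), HSPA1B (-0.30 to 0.064), DNAJB1 (-0.046 to 0.19), HSP90AA1 (-0.0056 to 0.15), HSPD1 (-0.12 to 0.034) and HSPE1 (-0.038 to 0.17). In the direct comparison it turned for HSPB8 (-0.066 to 0.061), HSPA1A (-0.27 to 0.036), HSPA1B (-0.27 to 0.12), HSPA8 (-0.13 to 0.033), HSPH1 (-0.014 to 0.12) and HSPE1 (-0.18 to 0.11). None of these was called with all libraries.

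Against control with siCAMSAP1, the genes called were 676 with no filter on low counts, 388 with DESeq2 and 152 with the compared groups alone, and the members called were 2 with no filter, with DESeq2 and without control library 1, HSPA8 being the addition. Upper-quartile scaling changed the split of calls with siRAB3IP against control to 1296 higher and 1412 lower, where TMM scaling gave 1469 and 1202. The libraries share a number but no stated pairing; deviations of same-numbered libraries correlated at 0.110 to 0.150 over genes, with 2 numbers only. With the replicate block 5590, 1643 and 4829 genes and 5, 2 and 4 members were called for siRAB3IP against control, siCAMSAP1 against control and siRAB3IP against siCAMSAP1, the added members being HSPA1B, HSPA8 and HSPH1, then HSPA8, then DNAJB1, HSP90AA1 and HSPD1. The cause of these shifts was not tested.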
